A study of Mus musculus with 4 samples.

Results

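The expression of 10 genes of fatty acid and glycerol uptake (Cd36, Fabp4, Fabp5, Gpihbp1, Lipe, Slc27a3, Meox2, Tcf15, Aqp7 and Mgll) was followed through the vessels of the neonatal mouse ear. The genes were taken by symbol, and all 10 were found among the 31054 features of both mRNA matrices. The cells came from C57BL/6 mice on postnatal day 8 that carried the Cdh5CreERT2-Rtom reporter, in which the Cdh5 promoter, active in endothelium, drives the recombinase. After enrichment for CD31, live cells positive for CD31 and for the reporter were sorted and run as 2 biological replicates in the 10x 3' v3 chemistry. All cell classes below were taken from these same 2 libraries, so no genotype, treatment or age differs between them, and the number of animals pooled into each library is not stated in the labels. Antibody tag counts of the same cells were not used here.

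Triglyceride in blood travels in lipoproteins too large to leave the vessel, so lipoprotein lipase on the capillary wall must release fatty acids first. GPIHBP1 carries this lipase through the endothelial cell to its luminal face and holds it there, CD36 and fatty acid transport proteins help fatty acids across the membrane, and fatty acid binding proteins carry them within the cell. Hormone-sensitive lipase and monoglyceride lipase cut stored glycerides inside cells, and AQP7 lets glycerol pass the membrane. In heart endothelium of mice, the transcription factors MEOX2 and TCF15 act as a pair that drives fatty acid uptake genes.

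Of 1745 and 2877 barcodes in libraries 1 and 2, 1498 and 2239 cells were kept, with median depths of 8459 and 8982 UMIs. The libraries shared 3 barcodes. Cells were sorted into classes by marker genes that include none of the 10 genes. Lymphatic-like cells (at least 4 of 9 markers such as Prox1 and Reln) numbered 287 and 594, tip-like cells (3 of 5, such as Esm1 and Apln) 65 and 115, artery-like cells (5 of 9, such as Gja5 and Bmx) 206 and 196, and vein-like cells (3 of 6, such as Ackr1 and Selp) 142 and 142. The pair of capillary gates rest on only 2 markers each and are therefore named by gene: 46 and 59 Car4-gated cells held at least 2 UMIs of Car4 and Timp4, and 73 and 130 Lrat-gated cells held both Lrat and Col13a1. At the minimum of their gate sat 50 and 79 of the tip-like, 13 and 21 of the Car4-gated, 10 and 21 of the Lrat-gated, 47 and 56 of the artery-like and 60 and 76 of the vein-like cells. Cells that met more than 1 blood vessel gate (66 and 111) were left out, and 444 and 638 blood endothelial cells met none. The median depth of a class in a library lay between 6244 (artery-like) and 11516 (tip-like) UMIs, and 26.1% and 13.6% of Car4-gated cells carried at least 3 dividing-cell markers, against 37.0% and 31.5% of Lrat-gated cells and 6.31% and 7.65% of artery-like cells.

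Adipocytes also express most of these genes, so their markers were looked at in each class. Tip-like, Lrat-gated, artery-like and vein-like cells had no UMI of the 8 adipocyte markers in either library. Car4-gated cells had 3 UMIs, all of Cfd, in library 1 and none in library 2, with Adipoq, Plin1 and Cidec at 0 in both. One further cell of library 1 that met the Car4 gate carried 4 adipocyte markers with 386 Fabp4 UMIs and was left out, a choice made after the levels were seen. Summed pericyte and smooth muscle markers (10 genes) had 87.0 and 137 CPM (UMIs scaled to the total of the class in a library) in Car4-gated cells, with Cspg4 at 0, against 37.5 to 89.4 CPM over the libraries of the other blood classes. Summed macrophage markers (8 genes) had 14.1 and 8.58 CPM in Car4-gated cells, with C1qa, C1qb and Csf1r at 0, and 2.46 to 17.9 CPM in the other blood classes. Markers of other vessel gates were present as well. Summed arterial markers had 2527 and 701 CPM in vein-like cells, against 8518 and 6690 CPM in artery-like cells. Summed venous markers had 62.7 and 61.4 CPM in artery-like cells. A tip marker was held by 80.8% and 81.5% of Lrat-gated cells, and an Lrat gate marker by 52.3% and 40% of tip-like cells. The part of any of these markers in the differences below was not tested.

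**Figure D1:**
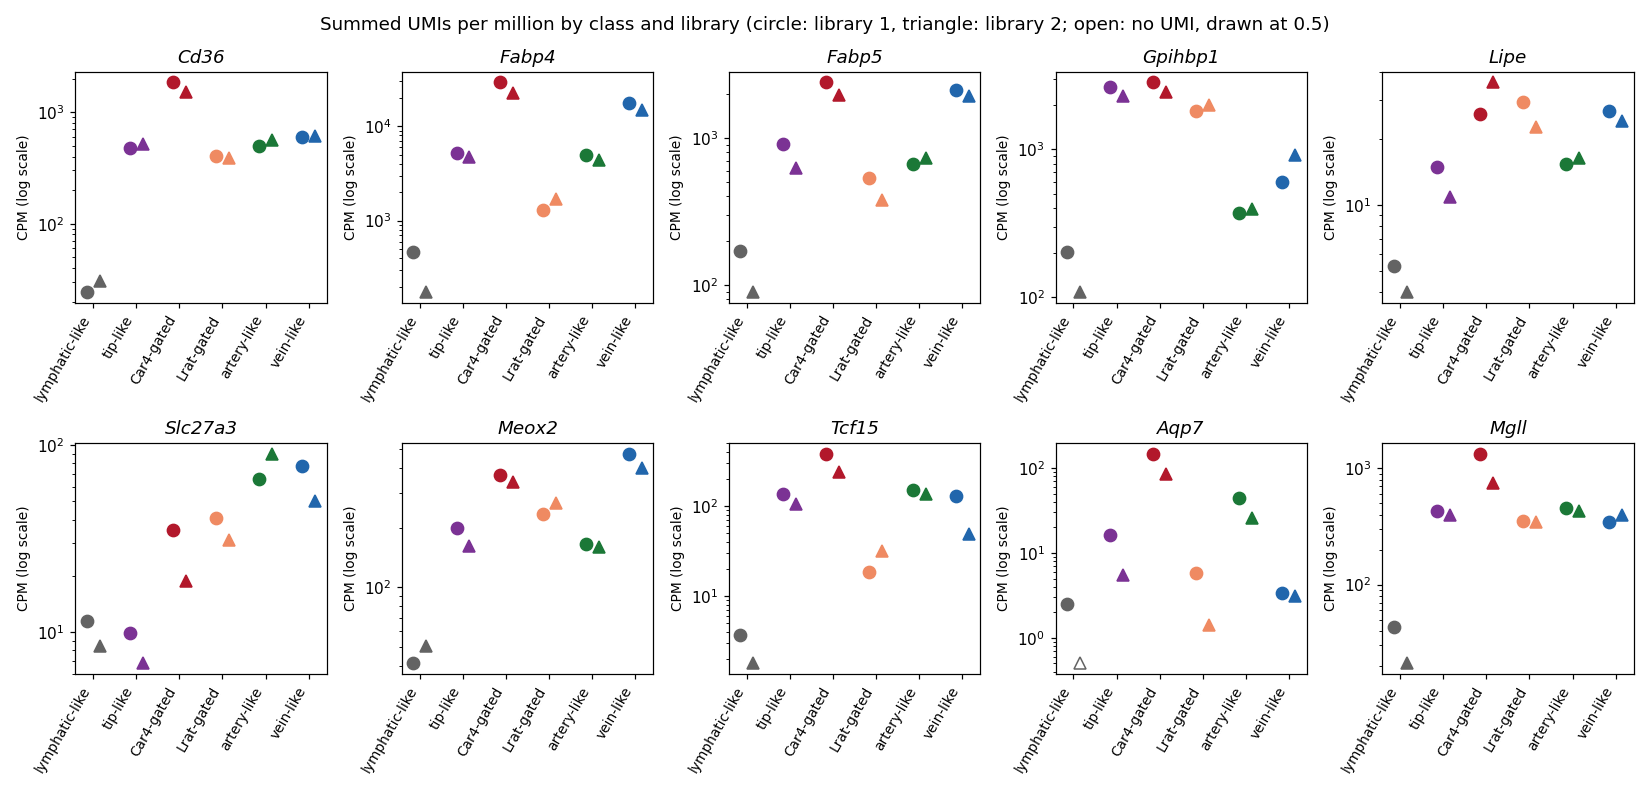
Level of each of the 10 genes (CPM of summed UMIs, log axis) in 6 cell classes; circles are library 1, triangles library 2 and open symbols no UMI. Cd36, Fabp4, Fabp5, Gpihbp1, Tcf15, Aqp7 and Mgll stand highest in Car4-gated cells in both libraries, and Meox2 in vein-like cells. Car4-gated cells overlap with vein-like cells in Fabp5 and with tip-like cells in Gpihbp1. Every gene but Slc27a3 is lowest in lymphatic-like cells or, for Aqp7, close to no UMI in several classes.

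Car4-gated cells carried more mRNA of most of the 10 genes than artery-like and vein-like cells, whereas Lrat-gated cells carried less of many of them. In Car4-gated cells, 8 of the 10 genes were higher than in the mean of artery-like and vein-like cells, from 1.35-fold (Meox2) to 10.99-fold (Aqp7), Slc27a3 was lower, and Lipe did not pass the test (edgeR, adjusted p under 0.05). Of all 10346 genes tested, 6.38% passed, 3.31% as higher and 3.07% as lower. In Lrat-gated cells only Gpihbp1 of the 10 was higher than in artery-like and vein-like cells, and Cd36, Fabp4, Fabp5, Slc27a3 and Tcf15 were lower, where 12.1% of all genes passed (6.21% higher, 5.88% lower). Set against each other, Car4-gated cells exceeded Lrat-gated cells in Cd36, Fabp4, Fabp5, Tcf15, Aqp7 and Mgll, and none of the 10 was lower, where 2.07% of all genes passed (1.42% higher, 0.648% lower). The median log2 change of the 10 genes was 1.41 in Car4-gated cells against artery-like and vein-like cells, -0.78 in Lrat-gated cells against the same classes and 1.86 between the capillary gates, beside medians over all genes of -0.01, 0.00 and -0.02.

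Tip cells are known to lead vascular sprouts, and tip-like cells had less Cd36 and Meox2 than the mean of both capillary gates. In both libraries their levels of Cd36, Fabp4, Fabp5, Gpihbp1, Tcf15, Aqp7 and Mgll lay between those of the Car4 and Lrat gates. For Cd36 the difference from Lrat-gated cells alone was positive and did not pass (log2 change 0.34 ± 0.12, edgeR adjusted p = 0.157). Against the mean of both gates, Cd36, Lipe, Slc27a3 and Meox2 were lower in tip-like cells and none of the 10 was higher, where 3.42% of all genes passed (1.92% higher, 1.5% lower). Against Car4-gated cells alone, 8 of the 10 genes were lower (all but Gpihbp1 and Slc27a3), where 2.64% of all genes passed (1.05% higher, 1.59% lower). Against Lrat-gated cells alone Fabp4, Fabp5 and Tcf15 were higher and Slc27a3 was lower, where 3.85% passed (2.32% higher, 1.53% lower). Between the larger vessels, Tcf15 and Aqp7 were higher in artery-like than in vein-like cells and Fabp4, Fabp5, Gpihbp1 and Meox2 were lower, where 19.5% of all genes passed (10.1% higher, 9.37% lower). Lymphatic-like cells had less of all 10 genes than the mean of the blood classes, by 3.40-fold (Slc27a3) to 40.5-fold (Tcf15), where 40.7% of all genes passed (20.9% higher, 19.9% lower). Against vein-like cells alone, Car4-gated cells were higher in Cd36, Fabp4, Gpihbp1, Tcf15, Aqp7 and Mgll and lower in Slc27a3, where 6.17% passed (3.01% higher, 3.16% lower). The comparisons share classes and libraries, and those of tip-like cells with each gate and of Car4-gated with vein-like cells were added after the others had been seen.

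**Figure D2:**
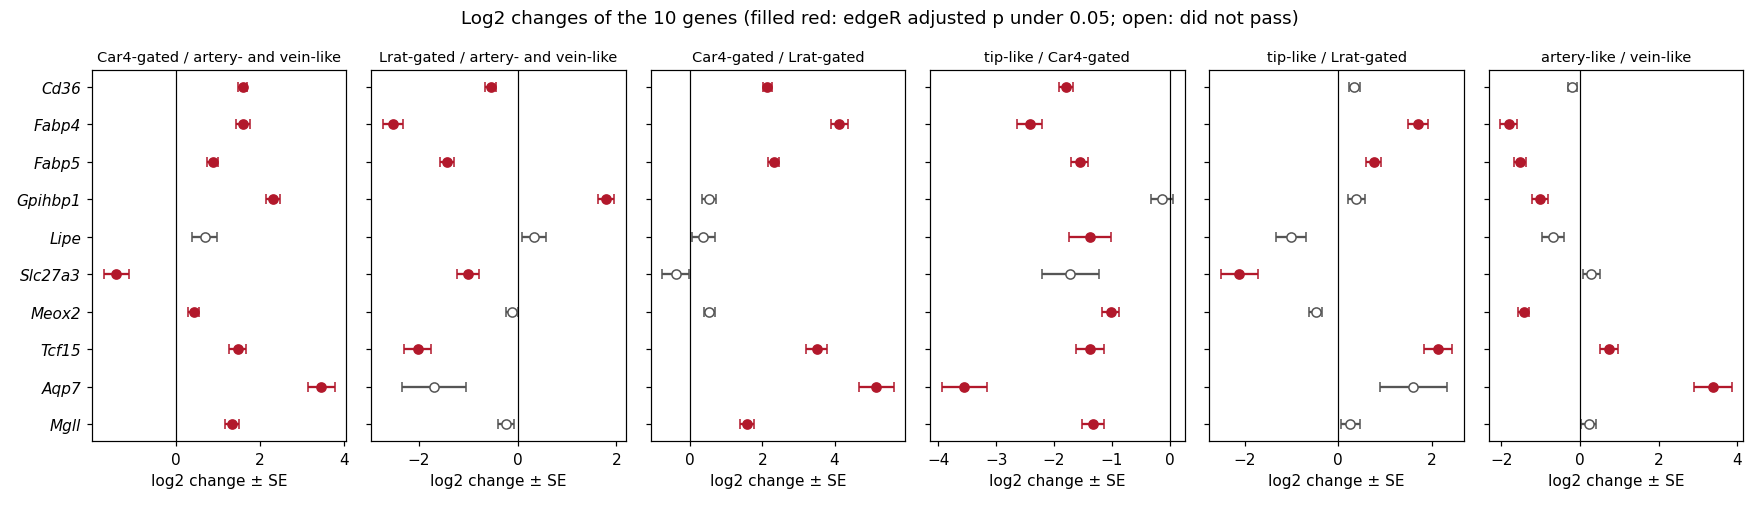
Log2 change with its standard error (x axis) for each of the 10 genes (rows) in 6 comparisons between cell classes, with the class named first over the second; filled red points passed the edgeR test and open points did not; x axes differ between panels. Aqp7 has the largest changes in the comparisons of Car4-gated cells. Against artery-like and vein-like cells, the Car4 and Lrat points lie on opposite sides of 0 for every gene but Gpihbp1, Lipe and Slc27a3, though not all passed.

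Gpihbp1, the anchor of lipoprotein lipase, was high in all 3 small-vessel classes. It had 2650 and 2303 CPM (libraries 1 and 2, here and below) in tip-like cells, 2841 and 2441 CPM in Car4-gated cells and 1816 and 1991 CPM in Lrat-gated cells, against 370.0 and 393 CPM in artery-like and 598 and 917 CPM in vein-like cells. The ranges of tip-like and Car4-gated cells overlapped, and every library of these 3 classes was above every library of the larger vessels. The log2 change was 2.31 ± 0.16 (SE) in Car4-gated and 1.80 ± 0.16 in Lrat-gated cells against artery-like and vein-like cells (edgeR adjusted p of 6.82e-09 and 1.51e-07). Car4-gated cells did not pass against Lrat-gated cells (log2 change 0.52 ± 0.19, adjusted p = 0.235), although they did with the looser gate (adjusted p = 0.0355) and without the low-count filter (adjusted p = 1.54e-05). Artery-like cells were lower than vein-like cells by log2 -1.01 ± 0.20 (adjusted p = 7.7e-04), a call lost when classes were taken from clusters (log2 -0.36, adjusted p = 0.37). After thinning to 4000 UMIs per cell, 96.9% and 100% of tip-like, 100% and 100% of Car4-gated and 98.6% and 99.2% of Lrat-gated cells held a Gpihbp1 UMI, against 35.3% and 34.5% of artery-like and 63.6% and 71.9% of vein-like cells.

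Cd36, the fatty acid translocase, was concentrated in Car4-gated cells. Its level was 476 and 514 CPM in tip-like, 1849 and 1502 CPM in Car4-gated, 403 and 386 CPM in Lrat-gated, 495 and 564 CPM in artery-like and 597 and 610.5 CPM in vein-like cells. Tip-like and artery-like cells overlapped, and every library of Car4-gated cells was above every library of the other classes. Cd36 was 3.01-fold higher in Car4-gated than in artery-like and vein-like cells (log2 change 1.59 ± 0.10, edgeR adjusted p = 2.16e-09) and 4.40-fold higher than in Lrat-gated cells (2.14 ± 0.12, adjusted p = 4.45e-10). In Lrat-gated cells the change against artery-like and vein-like cells was small (-0.55 ± 0.11, adjusted p = 0.00128), did not pass with the stricter gate (-0.38, adjusted p = 0.0913), and had the other sign with classes from clusters (0.18, adjusted p = 0.45). Tip-like cells were lower than Car4-gated cells, with a log2 change of -1.79 ± 0.12 (adjusted p = 1.7e-08), while artery-like and vein-like cells did not pass against each other (-0.20 ± 0.12, adjusted p = 0.271).

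Slc27a3, which encodes a member of the fatty acid transport protein family with acyl-CoA synthetase activity, was highest in the larger vessels. It had 9.93 and 6.81 CPM in tip-like, 35.3 and 18.9 CPM in Car4-gated, 40.9 and 31.1 CPM in Lrat-gated, 65.8 and 90.1 CPM in artery-like and 77.8 and 50.5 CPM in vein-like cells. The larger vessels overlapped with each other, as did the capillary gates. These levels rest on 8 and 10 UMIs in tip-like, 15 and 11 in Car4-gated and 107 and 132 in artery-like cells. The log2 change was -1.40 ± 0.31 in Car4-gated cells (edgeR adjusted p = 0.00539) and -1.01 ± 0.22 in Lrat-gated cells (adjusted p = 0.00382) against artery-like and vein-like cells. The first of these did not pass with classes from clusters (-0.81, adjusted p = 0.336) and the second with the looser gate (-0.63, adjusted p = 0.132). Tip-like cells were lower than Lrat-gated cells by log2 -2.11 ± 0.39 (adjusted p = 0.00227), a call lost after thinning (-2.06, adjusted p = 0.0681) and with the 5% mitochondrial filter (-1.92, adjusted p = 0.0738). Against both gates together, the change in tip-like cells (-1.92 ± 0.39, adjusted p = 0.00543) was lost under the same settings (adjusted p of 0.0786 and 0.544). Against vein-like cells alone, the Car4-gated change of -1.26 ± 0.33 (adjusted p = 0.0237) was not passed under 6 alternatives (adjusted p of 0.0548 to 0.408).

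RefSeq start sites on GRCm38.p6 were at hand for 6 of the 10 genes, namely Cd36, Lipe, Slc27a3, Meox2, Aqp7 and Mgll. The 250 bases before the start of Cd36 and of Aqp7, which stood highest in the Car4 gate and hold the half-site described next, are shown beside those of Slc27a3, which was lower there and does not hold it; all 3 genes lie on the minus strand, and sequences run 5′ to 3′ of that strand. Capitals mark the nuclear receptor half-site AGGTCA and the E-box CANNTG, on either strand, so that a half-site on the other strand reads TGACCT.
Cd36 chr5:17835897-17836146: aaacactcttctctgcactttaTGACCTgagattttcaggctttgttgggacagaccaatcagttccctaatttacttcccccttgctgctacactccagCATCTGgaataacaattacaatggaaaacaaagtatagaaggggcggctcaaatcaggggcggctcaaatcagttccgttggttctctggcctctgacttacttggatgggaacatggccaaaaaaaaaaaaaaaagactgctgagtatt
Aqp7 chr4:41048137-41048386: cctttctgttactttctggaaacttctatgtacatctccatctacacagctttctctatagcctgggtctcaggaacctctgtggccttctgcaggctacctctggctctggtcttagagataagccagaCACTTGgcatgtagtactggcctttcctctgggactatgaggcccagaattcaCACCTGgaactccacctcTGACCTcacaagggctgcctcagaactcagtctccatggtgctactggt
Slc27a3 chr3:90389939-90390188: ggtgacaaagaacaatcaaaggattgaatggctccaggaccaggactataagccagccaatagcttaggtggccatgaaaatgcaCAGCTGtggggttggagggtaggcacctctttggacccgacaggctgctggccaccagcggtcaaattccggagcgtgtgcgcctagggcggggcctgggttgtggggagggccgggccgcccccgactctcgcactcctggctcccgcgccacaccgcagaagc
The half-site was present in 2 of the 6 genes, Cd36 and Aqp7, and not in Mgll, which also stood highest in the Car4 gate. Among 32851 mouse promoter windows of 300 bases, 14% held it in the 250 bases before the start. This share and those below are per window and cover the same 250 bases. A gene was counted if any of its windows held the motif, and Aqp7, Lipe and Mgll had more than 1 window. The E-box was present in all 6 genes and in 66.2% of windows. A direct repeat of AGGTCA with 1 base between the copies, the element known to bind PPAR with RXR, occurred in 0 of the 6 genes and in 0.0335% of windows. The start used for Cd36 lies inside the annotated span of the gene, whose 5′ end is farther upstream. In the Cd36 stretch the half-site lies 228 bases and the E-box 150 bases before that start, and in the Aqp7 stretch the half-site lies 49 bases before it. These are matches of letters, and binding was not measured.

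Fabp4 and Fabp5, which encode intracellular fatty acid binding proteins, were high in both Car4-gated and vein-like cells. Fabp4 had 5206 and 4679 CPM in tip-like, 29214 and 22777 CPM in Car4-gated, 1299 and 1689.6 CPM in Lrat-gated, 4913 and 4352 CPM in artery-like and 17613 and 14880.0 CPM in vein-like cells. Car4-gated cells were highest and Lrat-gated cells lowest among the blood classes in both libraries, and tip-like and artery-like cells overlapped. In Car4-gated cells Fabp4 was 3.03-fold above artery-like and vein-like cells (log2 change 1.60 ± 0.17, edgeR adjusted p = 1.7e-06) and 17.5-fold above Lrat-gated cells (4.13 ± 0.23, adjusted p = 3.86e-10). The excess over vein-like cells alone was small (0.69 ± 0.20, adjusted p = 0.0485) and did not pass under 6 alternatives, with adjusted p of 0.0502 with the adipocyte-marked cell kept, 0.256 without the library block, 0.5 with the 5% mitochondrial filter and 0.624 without dividing cells. Lrat-gated cells were lower than artery-like and vein-like cells by log2 -2.53 ± 0.20 (adjusted p = 3.78e-08), and by -0.82 with classes from clusters, where the test was not passed (adjusted p = 0.0969). Tip-like cells were above Lrat-gated cells by 1.70 ± 0.21 (adjusted p = 4.9e-05), a difference of -0.033 with classes from clusters (adjusted p = 0.998). Artery-like cells were 3.53-fold lower than vein-like cells (-1.82 ± 0.21, adjusted p = 1.51e-06).

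Fabp5 had 905 and 625 CPM in tip-like, 2382 and 1951 CPM in Car4-gated, 536 and 376 CPM in Lrat-gated, 667 and 726 CPM in artery-like and 2114 and 1910.2 CPM in vein-like cells. Car4-gated and vein-like cells overlapped, and their difference did not pass (log2 change 0.12 ± 0.15, edgeR adjusted p = 0.8). Car4-gated cells exceeded Lrat-gated cells 4.98-fold (2.32 ± 0.16, adjusted p = 8.04e-09), and artery-like cells were 2.89-fold below vein-like cells (-1.53 ± 0.15, adjusted p = 1.45e-07). Tip-like cells lay above Lrat-gated cells by log2 0.76 ± 0.16 (adjusted p = 0.00549), which was not passed without the library block (adjusted p = 0.155), without dividing cells (adjusted p = 0.209) or after thinning (adjusted p = 0.17), and was -0.14 with classes from clusters. The mouse genome holds near-identical copies of Fabp5, and the treatment of reads shared with them is not stated in the labels.

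**Figure D3:**
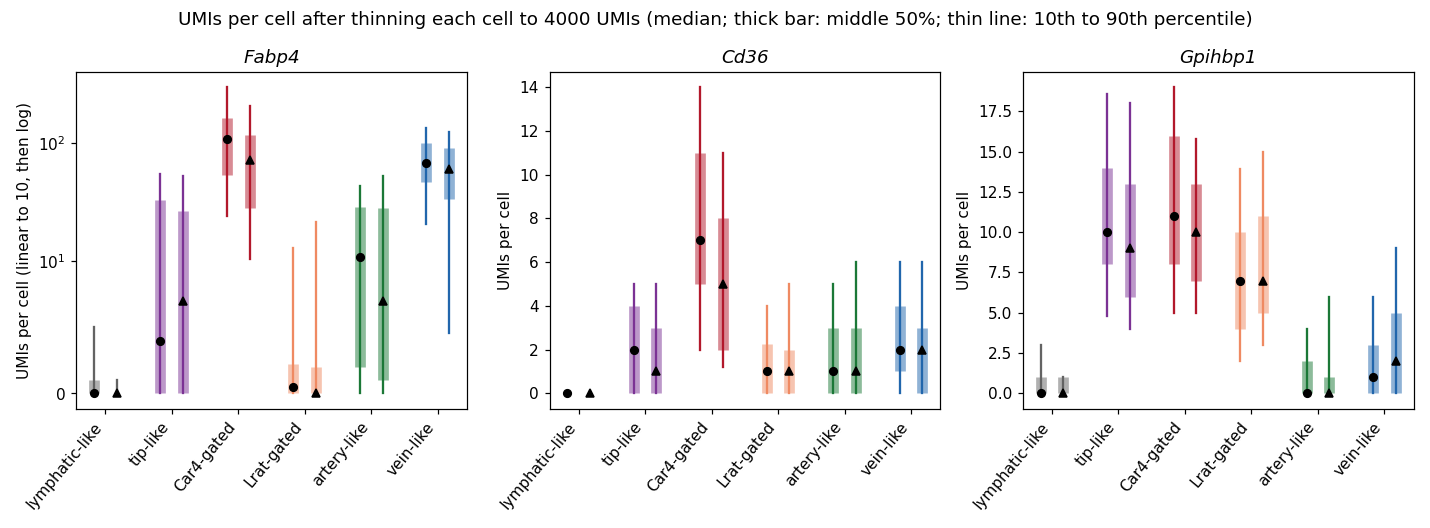
UMIs per cell of Fabp4 (y axis linear to 10, then log), Cd36 and Gpihbp1 after every cell was thinned to 4000 UMIs; symbols are medians (circle library 1, triangle library 2), thick bars the middle 50% of cells and thin lines the 10th to 90th percentile. Fabp4 medians are 107 and 72 UMIs in Car4-gated cells against 0.5 and 0 in Lrat-gated cells, while Gpihbp1 medians are 11 and 10 against 7 and 7.

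Cells of 1 class differed widely in Fabp4. After thinning, the median was 107 and 72 UMIs per Car4-gated cell and 67 and 60 per vein-like cell. Artery-like cells had medians of 11 and 7 UMIs, with 53.2% and 44.8% of cells at 10 UMIs or more. Tip-like cells were spread as widely, with 46.2% and 42.3% of cells at 10 UMIs or more and a lower quartile of 0 in both libraries. In Lrat-gated cells 13.9% and 17.5% of cells reached 10 UMIs and the medians were 0.5 and 0. Within Car4-gated cells, Fabp4 went with Fabp5 (Spearman rho 0.68 and 0.70 over 41 and 53 cells), Cd36 (0.68 and 0.62) and Mgll (0.83 and 0.51). Fabp4 and Fabp5 were related in each of the other blood classes as well, with rho from 0.36 (artery-like, library 2) to 0.79 (tip-like, library 1). For Cd36, rho with Fabp4 was 0.39 and 0.48 in artery-like and 0.34 and 0.52 in tip-like cells. It was 0.24 and 0.24 in Lrat-gated and 0.26 and 0.34 in vein-like cells. For Mgll, rho with Fabp4 was 0.48 and 0.36 in artery-like and 0.18 and 0.17 in tip-like cells. It was 0.10 and 0.11 in Lrat-gated and 0.17 and 0.07 in vein-like cells. With Gpihbp1, rho of Fabp4 was 0.08 and 0.42 in Car4-gated, -0.13 and -0.14 in Lrat-gated and 0.22 and 0.11 in artery-like cells. The cells of a library share depth and free RNA, and these values describe them without a test.

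Mgll, Lipe and Aqp7 act on glycerides and glycerol. Mgll, the monoglyceride lipase, had 428 and 401 CPM in tip-like, 1338 and 743 CPM in Car4-gated, 354 and 343 CPM in Lrat-gated, 455 and 426 CPM in artery-like and 345 and 396 CPM in vein-like cells. Car4-gated cells were highest in both libraries, and the other 4 blood classes lay within a narrow band. The log2 change in Car4-gated cells was 1.35 ± 0.16 against artery-like and vein-like cells (edgeR adjusted p = 8.84e-06) and 1.58 ± 0.20 against Lrat-gated cells (adjusted p = 5.84e-05). By library the first of these was 1.79 and 0.87, and the change against vein-like cells alone (1.46 ± 0.19, adjusted p = 3.45e-05) was 1.99 and 0.90. Tip-like cells were below Car4-gated cells by -1.33 ± 0.20 (adjusted p = 3.08e-04).

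Lipe, which encodes hormone-sensitive lipase, was low throughout. It had 14.9 and 10.9 CPM in tip-like, 25.9 and 36.0 CPM in Car4-gated, 29.2 and 22.7 CPM in Lrat-gated, 15.4 and 16.4 CPM in artery-like and 26.6 and 24.0 CPM in vein-like cells. These values rest on 11 and 21 UMIs in Car4-gated and 12 and 16 UMIs in tip-like cells, and Car4-gated, Lrat-gated and vein-like cells overlapped. Of the comparisons among blood classes, Lipe passed in those of tip-like cells with both capillary gates (log2 change -1.20 ± 0.30, edgeR adjusted p = 0.0242) and with Car4-gated cells alone (-1.38 ± 0.36, adjusted p = 0.0451). The first was not passed under 5 alternatives (adjusted p of 0.0626 to 0.206). The second was not passed under 7, among them the fit without the library block (adjusted p of 0.0758 to 0.379), and came to -0.79 and -1.67 in the separate libraries.

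Among the gated classes, Aqp7, the glycerol channel, was highest in Car4-gated and next highest in artery-like cells. It had 16.1 and 5.45 CPM in tip-like, 148 and 84.1 CPM in Car4-gated, 5.84 and 1.42 CPM in Lrat-gated, 44.3 and 25.9 CPM in artery-like and 3.41 and 3.08 CPM in vein-like cells. Car4-gated cells stood above artery-like cells in both libraries, and tip-like, Lrat-gated and vein-like cells were lower than both. Outside these classes, Aqp7 had 22.7 ± 3.37 CPM in blood endothelial cells that met no gate (mean and SD of 2 libraries). Cells with pericyte markers had 21.2 ± 16.7 CPM. Of Car4-gated cells, 54.3% and 37.3% held an Aqp7 UMI (exact 95% intervals 39.0 to 69.1% and 25.04 to 50.9%), against 4.11% and 1.54% of Lrat-gated cells (0.856 to 11.5% and 0.187 to 5.45%). The log2 change in Car4-gated cells was 3.46 ± 0.32 against artery-like and vein-like cells (edgeR adjusted p = 3.27e-07), and 5.16 ± 0.48 against Lrat-gated cells (adjusted p = 7.09e-07), whose sums held 5 and 2 UMIs. Artery-like cells were 10.4-fold above vein-like cells (3.38 ± 0.48, adjusted p = 1.9e-05), where vein-like cells held 5 UMIs in each library. By library the artery-like excess was 3.33 and 2.68.

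The transcription factor genes Meox2 and Tcf15 did not share 1 order. Meox2, a homeobox gene, was highest in vein-like cells, with 199.8 and 162 CPM in tip-like, 369 and 339.8 CPM in Car4-gated, 235 and 266 CPM in Lrat-gated, 165 and 160.4 CPM in artery-like and 474 and 403 CPM in vein-like cells. Tip-like and artery-like cells overlapped at the low end. Artery-like cells were 2.71-fold below vein-like cells (log2 change -1.44 ± 0.13, edgeR adjusted p = 8.51e-08), and tip-like cells were 2.03-fold below Car4-gated cells (-1.02 ± 0.15, adjusted p = 3.15e-04). The excess of Car4-gated over artery-like and vein-like cells was at the threshold (0.43 ± 0.13, adjusted p = 0.0464) and was not passed under 9 alternatives, with adjusted p of 0.0533 (adipocyte-marked cell kept) to 0.407 (5% mitochondrial filter), and 0.111 without the library block. Car4-gated cells did not pass against vein-like cells (-0.29 ± 0.14, adjusted p = 0.315).

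Tcf15, which encodes a basic helix-loop-helix factor, separated the capillary gates more than Meox2 did. Its level was 135 and 105 CPM in tip-like, 383 and 237 CPM in Car4-gated, 18.7 and 31.9 CPM in Lrat-gated, 151 and 136 CPM in artery-like and 131 and 48.7 CPM in vein-like cells. Car4-gated cells were highest and Lrat-gated cells lowest of the blood classes in both libraries, while tip-like and vein-like cells overlapped. After thinning, 65.9% and 45.3% of Car4-gated cells held a Tcf15 UMI (exact 95% intervals 49.4 to 79.9% and 31.6 to 59.6%), against 6.94% and 10.3% of Lrat-gated cells (2.29 to 15.5% and 5.61 to 16.997%). The log2 change between the gates was 3.50 ± 0.29 (edgeR adjusted p = 1.95e-07), or 4.34 and 2.89 by library. Car4-gated cells exceeded artery-like and vein-like cells by 1.48 ± 0.20 (adjusted p = 3.91e-05), and Lrat-gated cells were lower than these by -2.03 ± 0.28 (adjusted p = 2.75e-05), or -2.87 and -1.35 by library. With classes from clusters the Lrat change was -0.32 (adjusted p = 0.408). Tip-like cells lay between the gates, with log2 changes of -1.37 ± 0.24 against Car4-gated (adjusted p = 0.00182) and 2.13 ± 0.31 against Lrat-gated cells (adjusted p = 1.9e-04). The first was not passed without the library block (adjusted p = 0.0703) and the second with classes from clusters (0.40, adjusted p = 0.502). The excess of artery-like over vein-like cells (0.73 ± 0.23, adjusted p = 0.0276) came to 0.21 and 1.43 in the separate libraries and was not passed under 5 alternatives. The adjusted p was 0.204 without the library block, 0.0584 with the stricter gate and 0.0583 with the looser gate. It was 0.183 by the DESeq2 Wald test and 0.194 with the 5% mitochondrial filter.

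Lymphatic vessels are known for carrying dietary lipid away from the gut as whole lipoproteins. In lymphatic-like cells Cd36 had 24.3 and 30.4 CPM, against 386 to 1849 CPM over the libraries of the blood classes, and Fabp4 had 462 and 174 CPM, against 1299 to 29214 CPM. Gpihbp1 had 201 and 108 CPM in lymphatic-like cells, against 370.0 to 2841 CPM in the blood classes, and Tcf15 had 3.74 and 1.80 CPM, against 18.7 to 383 CPM. Slc27a3 and Aqp7 showed no such gap. Slc27a3 had 11.5 and 8.43 CPM in lymphatic-like cells, against 9.93 and 6.81 CPM in tip-like cells, and Aqp7 had 2.49 and 0 CPM in lymphatic-like cells, against 5.84 and 1.42 CPM in Lrat-gated cells. Aqp7 had 8 UMIs in library 1, all in 1 cell, and 0 of 594 lymphatic-like cells held one in library 2, where 3 UMIs would have come to 0.414 CPM. Its log2 change against the blood classes (-3.87 ± 0.50, edgeR adjusted p = 1.59e-06) was -2.54 in library 1 alone and -3.37 in library 2 alone. Ccl21a, a chemokine gene of lymphatic cells, was found in 4.11% to 12.2% of the cells of a blood class, against 86.4% and 97.3% of lymphatic-like cells. It is among the 9 markers of the lymphatic gate, of which blood cells could hold at most 2. Its shares were therefore shaped by the gates and give no scale for stray RNA of the 10 genes. Fabp4 had a UMI in 37.6% and 35.5% of lymphatic-like cells (median depths 8993 and 10212 UMIs) before thinning, and in 25.7% and 18.6% after it.

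The number of the 10 genes detected in the same cell followed the class. After thinning, the median was 7 and 6 genes in Car4-gated cells, 4 and 4 in Lrat-gated cells, 5 and 4 in tip-like cells, 4 and 4 in artery-like cells, 6 and 5 in vein-like cells and 1 and 1 in lymphatic-like cells. At least 5 of the genes were found in 97.6% and 86.8% of Car4-gated cells, against 36.1% and 32.5% of Lrat-gated cells. In lymphatic-like cells 36.3% and 38.2% held none of the 10.

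Of a list of 103 other genes of fatty acid and glycerol handling, 73 were tested. In Car4-gated against artery-like and vein-like cells 9 were higher and 0 lower (12.3% and 0%, beside 3.31% and 3.07% of all genes), with a median log2 change of -0.01 beside -0.01 over all genes. The 9 were Angptl4, Lpl, Meox1, Plin2, Scarb1, Pparg, Aqp1, Acsl1 and Abcg1. Against vein-like cells alone, Angptl4, Lpl, Plin2 and Pparg of these were higher, and Aqp1 was lower, with 941 and 1509 CPM in Car4-gated cells against 1796 and 1777 CPM in vein-like and 236 and 221 CPM in artery-like cells (log2 change against vein-like cells -0.56 ± 0.16, edgeR adjusted p = 0.0485). In Lrat-gated cells against artery-like and vein-like cells 6 were higher and 6 lower (8.22% each, beside 6.21% and 5.88% of all genes). Between the Car4 and Lrat gates 7 were higher and 0 lower (9.59% and 0%, beside 1.42% and 0.648%). In tip-like cells against both gates 0 were higher and 4 lower (0% and 5.48%, beside 1.92% and 1.5%), and in artery-like against vein-like cells 12 were higher and 11 lower (16.4% and 15.1%, beside 10.1% and 9.37%). In lymphatic-like against blood endothelial cells 19 were higher and 23 lower (26% and 31.5%, beside 20.9% and 19.9% of all genes).

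Among these genes Lpl encodes lipoprotein lipase itself. It had 8.69 and 5.45 CPM in tip-like, 37.6 and 42.9 CPM in Car4-gated, 5.84 and 1.42 CPM in Lrat-gated, 1.84 and 0 CPM in artery-like and 11.6 and 4.31 CPM in vein-like cells. Lpl in Car4-gated cells rested on 16 and 25 UMIs, and the log2 change was 3.72 ± 0.53 against Lrat-gated cells (edgeR adjusted p = 2.88e-04) and 2.48 ± 0.42 against vein-like cells (adjusted p = 5.68e-04), the second being 1.65 and 3.04 in the separate libraries. Cells with pericyte markers had 151 and 121 CPM of Lpl, and their part in the Car4-gated level was not tested. Lymphatic-like cells had 86.0 and 36.9 CPM of Lpl.

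Angptl4, a secreted inhibitor of lipoprotein lipase, had 81.9 and 106 CPM in tip-like, 508 and 457 CPM in Car4-gated, 74.8 and 99.8 CPM in Lrat-gated, 83.0 and 84.0 CPM in artery-like and 218 and 310.5 CPM in vein-like cells. Like Fabp4 it was highest in Car4-gated and next highest in vein-like cells. Its log2 change was 2.49 ± 0.19 in Car4-gated against Lrat-gated cells (edgeR adjusted p = 4.09e-08) and -2.37 ± 0.19 in tip-like against Car4-gated cells (adjusted p = 1.32e-07). Pparg, the nuclear receptor that drives fatty acid storage genes, had 134 and 97.8 CPM in Car4-gated, 46.7 and 44.6 CPM in Lrat-gated and 30.7 and 40.04 CPM in vein-like cells, with log2 changes of 1.37 ± 0.25 against Lrat-gated (adjusted p = 0.00319) and 1.70 ± 0.25 against vein-like cells (adjusted p = 9.64e-05). Plin2, a coat protein of lipid droplets, was higher in Car4-gated than in vein-like cells by 1.57 ± 0.20 (adjusted p = 1.48e-05). Cavin1, a coat protein of caveolae, differed between the Car4 and Lrat gates by 0.84 ± 0.11 (adjusted p = 8.29e-05), and Cav1 between Car4-gated and vein-like cells by 0.61 ± 0.10 (adjusted p = 2.83e-04).

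Some genes of the list passed in both capillary gates against the mean of artery-like and vein-like cells. Meox1, a paralog of Meox2, had 209 and 201 CPM in Car4-gated and 250.05 and 246 CPM in Lrat-gated cells, against 20.3 and 23.9 CPM in artery-like and 147 and 219 CPM in vein-like cells. Car4-gated and vein-like cells overlapped in Meox1 and did not pass against each other. The log2 change against the mean of artery-like and vein-like cells was 1.71 ± 0.17 in Car4-gated and 1.93 ± 0.14 in Lrat-gated cells (edgeR adjusted p of 7.02e-07 and 1.69e-08). Scarb1, the receptor for high-density lipoprotein, had 567 and 668 CPM in Car4-gated and 582 and 569.8 CPM in Lrat-gated cells, against 143 and 200.02 CPM in artery-like and 393 and 548 CPM in vein-like cells. Abcg1, a sterol exporter, was higher in Lrat-gated cells by 1.78 ± 0.22 (adjusted p = 8.2e-06). Tip-like cells were lower than both gates together in Aqp1, a water channel (-1.03 ± 0.15, adjusted p = 3.19e-04), Scarb1 (-0.90 ± 0.16, adjusted p = 0.00127) and Flt1, a receptor for VEGF-A and VEGF-B (-1.0 ± 0.20, adjusted p = 0.00502). Nrp1, its co-receptor, was 584 ± 28.8 CPM in tip-like and 402 ± 13.7 CPM in Lrat-gated cells (SD, n = 2 libraries each), a log2 change of 0.54 ± 0.15 (edgeR adjusted p = 0.0455).

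**Figure D4:**
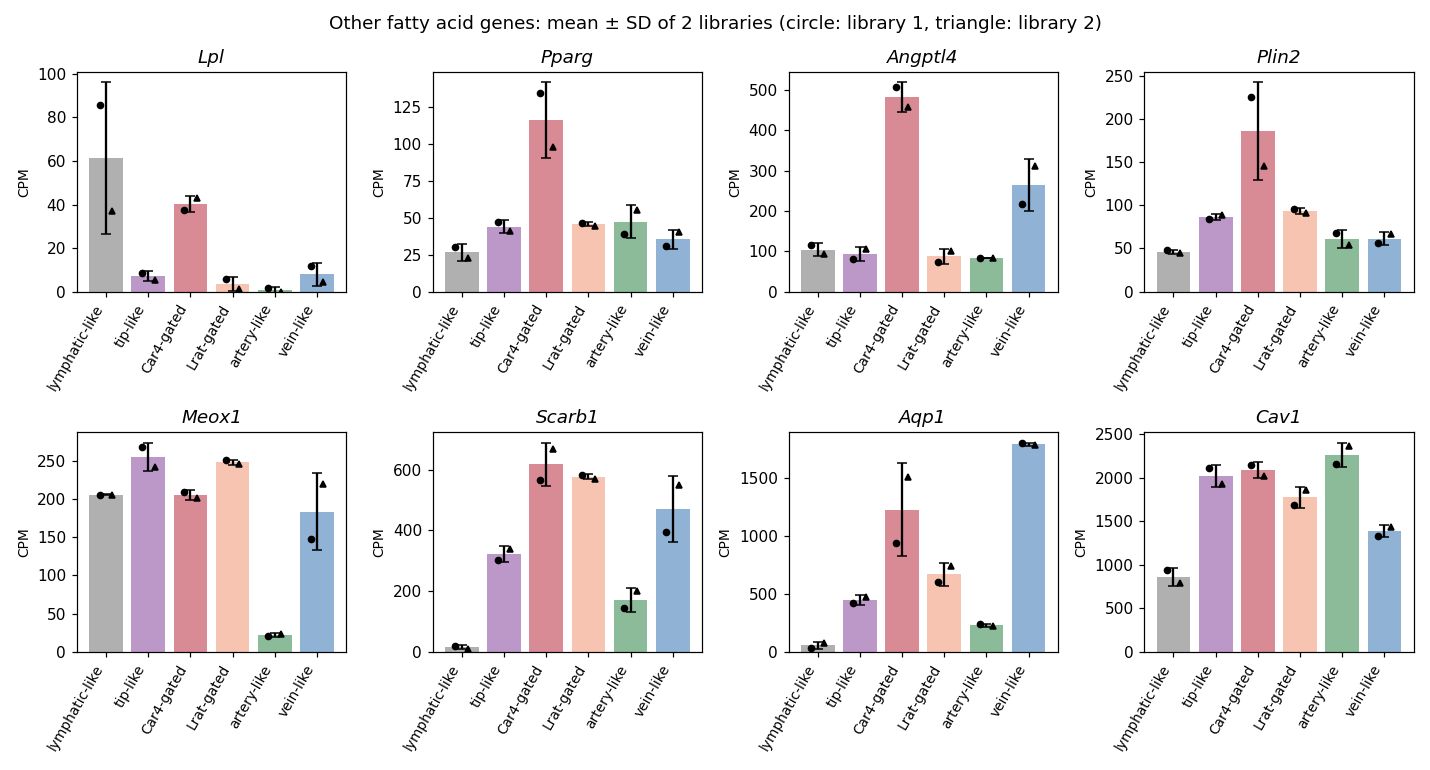
Level (CPM) of 8 further genes of fatty acid and glycerol handling in 6 cell classes; bars are means and error bars SDs of 2 libraries, with circles for library 1 and triangles for library 2. Angptl4, Pparg and Plin2 are highest in Car4-gated cells, Lpl is higher in lymphatic-like and Car4-gated cells, whose libraries overlap, than in the other classes, and Meox1 is low in artery-like cells.

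Likeness of pattern was taken as Pearson's r of log2 CPM over the 12 sums of class and library, which share libraries and are described without a test, among 4652 genes of at least moderate level. The genes closest to Cd36 were Airn, Etl4 and Adgrg1 (r of 0.98, 0.97 and 0.97), those closest to Fabp4 were Unc45b, Airn and Sdf2 (0.94, 0.94 and 0.93), and those closest to Gpihbp1 were Col4a1, Dok4 and St8sia4 (0.97 each). Slc27a3 was closest to Tek (0.95), Meox2 to Aqp1 (0.98), Tcf15 to Cavin1 (0.96) and Mgll to Adgrl4 (0.98). All r over 12 sums include the lymphatic sums, which are low for most of the 10 genes; without them r of Meox2 and Tcf15 was 0.10 in place of 0.76, and that of Cd36 and Gpihbp1 0.32 in place of 0.77. Among the 10 genes the closest pairs over the 10 blood sums were Fabp4 with Fabp5 (r = 0.96) and Cd36 with Mgll (0.93), and Aqp7 and Mgll had 0.85. Gpihbp1 and Slc27a3 had -0.79.

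All 10 genes are protein-coding in the annotation of GRCm38. Fabp5 (chr3:10012548-10016607, plus strand), Fabp4 (chr3:10204088-10208576, minus strand) and Slc27a3 (chr3:90385239-90389938, minus strand) lie on 1 chromosome. Cd36 lies at chr5:17781690-17888801 and Aqp7 at chr4:41033074-41048139, both on the minus strand, as does Lipe at chr7:25379527-25398710. Gpihbp1 lies at chr15:75596628-75599481, Mgll at chr6:88724412-88828360, Meox2 at chr12:37108540-37179534 and Tcf15 at chr2:152143561-152149097, all on the plus strand.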

How the data were processed

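The values are whole-number UMI counts, and the authors deposited them as 1 matrix per library; the submitters' processing notes name Cell Ranger, the build mm10 and Seurat 3.0.2 (with no role), and the matrix headers carry software version 3.0.2. Aligner settings are not stated. Barcodes with at least 500 genes and at most 10% mitochondrial UMIs were kept, and 2 and 11 doublets were removed with Scrublet (scanpy 1.11.5), which marked few cells. Cells with markers of other cell types were left out, and free RNA was not corrected. UMIs were summed per library and class (12 sums) and tested with edgeR 4.0.16 in R 4.3.3, using TMM scaling, a filter on low counts, the quasi-likelihood test, and class and library as terms (5 residual degrees of freedom). P-values were adjusted by Benjamini-Hochberg over 10346 genes, with a threshold of 0.05. The library is a block because the cells of each class in a library share its animals; the deviations of 2 classes correlated at 0.0443 to 0.243 over 15 pairs. Whether the libraries came from separate animals is known only from their labels as biological replicates. Where several classes form the comparison, their log levels were averaged. CPM divide by all UMIs of the class in a library. Shares have exact (Clopper-Pearson) 95% intervals, which like the floor of 3 UMIs cover counting error only. Thinning drew 4000 UMIs per cell and left out shallower cells, 5 and 6 of them in the Car4 gate. Named genes are the 10, up to 4 genes of the list with the smallest adjusted p per comparison, and the 3 most alike per gene whose mean log2 CPM was 5 or more; Acsl1 was named after its value was seen. Members and lists were chosen with earlier results of these data known. The fit was tested on simulated data for Car4-gated against artery-like and vein-like cells. It found 72% of genes changed 4 times and 35% of genes changed 2 times, and 1.83% of its calls were false. A gene that did not pass may therefore still differ by such an amount. Alternatives used DESeq2 1.42.0, other gates, filters and depths, clusters in place of gates, and single libraries.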

Additional observations from a re-analysis of the deposited data

How the results depend on the processing

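Of 1260 recomputed log2 changes (90 values under 14 settings), 1156 were counted as the same, 53 no longer passed, 26 newly passed, 21 moved and 4 reversed. For tested settings, the same means an unchanged side of the threshold, and a change of sign counted only where a test was passed. Values of single libraries have no test and were set against the SD of the 2 libraries' own values. By this rule 80 were the same without replicate 1 and 79 without replicate 2. The SD comes from the values being judged, so these labels say little about how far the libraries agree. In the cluster setting, a cluster took the class that most of its gated cells had. Lrat-gated cells were 59.5% and 59.7% of the gated cells in the clusters taken as that class. Tip-like cells were 83.3% and 52.1% in theirs. Other clusters led by Lrat-gated cells were given no class. All 4 reversals came with classes from clusters, where the Car4 class held 52 and 16 cells: Cd36 in Lrat-gated against artery-like and vein-like cells (0.18), and in tip-like against Lrat-gated cells Cd36 (-0.58), Fabp4 (-0.033) and Fabp5 (-0.14). Of the 10 genes, 3 then passed in Lrat-gated cells against artery-like and vein-like cells, 7 in tip-like cells against both gates and 2 in tip-like against Lrat-gated cells. The count against both gates was also 7 without the low-count filter and 2 with the 5% mitochondrial filter, and that against Lrat-gated cells was 2 after thinning; the cause was not tested. In lymphatic-like cells all 10 passed under each tested alternative. Without the replicate block, 8, 6, 6, 4, 5 and 10 of the 10 genes passed in the 6 planned comparisons, and 6, 3 and 5 in those added. In all, 7 of the calls made with the block were lost. A single library gives no test. The alternative that keeps the adipocyte-marked cell was chosen after the data were seen. Over all genes, counts that differed by more than 1.5 times from those reported were as follows. For Car4-gated against Lrat-gated cells (214), 139 passed by the DESeq2 Wald test, 381 without the low-count filter, 104 without the block, 138 with the looser gate, 85 with the 5% filter, 92 without dividing cells, 101 after thinning and 115 with clusters. For Car4-gated against artery-like and vein-like cells (660), 232 passed with the 5% filter and 394 after thinning. For Lrat-gated against the same classes (1250), 754 passed by the Wald test, 470 with the 5% filter, 736 without dividing cells and 711 after thinning. For tip-like against both gates (354), 222 passed by the Wald test, 543 without the filter, 171 without the block, 192 with the 5% filter and 198 after thinning. For artery-like against vein-like cells (2013), 1140 passed by the Wald test, 708 with the 5% filter and 1245 after thinning, and for lymphatic-like cells (4214), 2582 and 2721 with these last 2. For tip-like against Car4-gated cells (273), 422 passed without the filter, 109 without the block, 140 with the looser gate, 127 with the 5% filter and 156 after thinning. For tip-like against Lrat-gated cells (398), 233 passed by the Wald test, 199 without the block, 235 with the 5% filter and 210 after thinning. For Car4-gated against vein-like cells (638), 401 passed without the block, 211 with the 5% filter and 392 after thinning. Depth limits Lipe, Slc27a3 and Aqp7. In library 2, Aqp7 had no UMI in the lymphatic-like sum and 2 UMIs in the Lrat-gated sum.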
